A study of Mus musculus with 12 samples.

Results

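Solute carriers are a large group of membrane transport proteins, and their genes were followed here in MC38 cells, a mouse colon cancer line. The members were the genes whose array annotation carried a solute carrier symbol (Slc, a number and a letter) and whose probe was detected (p under 0.05) on 4 or more of 12 arrays, leaving out 5 carriers tied to glycolysis and cystine uptake (Slc2a1, Slc2a3, Slc7a11, Slc16a1 and Slc16a3) and the zinc carrier families Slc30 and Slc39. That gave 139 genes read by 195 probes, out of 328 such symbols with a probe, among 9100 tested genes read by 14091 probes. Among the symbols left, the detection p-values decided which genes were members. Which carriers MC38 cells express at a measurable level is thus set by the rule and was not tested. The members were chosen with earlier results of these data known.

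Solute carrier proteins move amino acids, sugars, ions, metals, vitamins and nucleotides across the plasma membrane and the membranes of mitochondria, lysosomes and the Golgi apparatus, by letting a solute run down its gradient or by coupling it to another ion. They are grouped into numbered families by protein sequence, and a family number usually but not always tells what is carried. Colon epithelium uses them for absorption and for salt and acid balance, and tumour cells use them to take up nutrients for growth.

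MC38 cells lacking CEACAM1 were compared with cells of the same line expressing either splice isoform of CEACAM1, a cell adhesion protein whose long form has a cytoplasmic tail with inhibitory signalling motifs. There were 4 arrays of CEACAM1-L cells (long isoform), 4 of CEACAM1-S cells (short isoform) and 4 of control cells devoid of CEACAM1, and each array held total RNA from cells grown for 72 h with 10% serum and selection antibiotics. How many clones each line came from, and whether the 4 samples of a line were separate cultures, the sources used here do not say, so the p-values reflect no more than the spread among these samples, which may be technical.

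Values are log2 fluorescence intensities after background correction and quantile normalization, which gives all arrays the same distribution. A probe's level cannot be set against that of another probe. Differences were tested with limma across all 9100 genes, and every adjusted p is limma's with Benjamini-Hochberg adjustment over those genes. "Rose", "fell" and "differed" refer to an adjusted p under 0.05, ± after a log2 difference is the standard error of the fit.

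Between 14717 and 16071 of 45281 probes were detected per array, and raw array medians ranged from 86.6 to 103 intensity units. Across tested genes the correlation r was 0.9856 to 0.9935 for arrays of a group and 0.9587 to 0.9838 for arrays of different groups. Within each group the arrays split into a pair of sets of 2, known from earlier work on these data: set A (CEACAM1-L 2 and 3, CEACAM1-S 1 and 4, control 2 and 3) had highest raw signals of 30290 to 40614 units and set B 17443 to 27138 units. Both sets hold every group evenly. Of 11 intestinal epithelial markers, Krt8 alone was detected on all 12 arrays, and Epcam, Krt18, Krt19, Krt20, Vil1 and Cdh17 were detected on none. Lgals4 was detected on 3 CEACAM1-L, 4 CEACAM1-S and 4 control arrays. In the same order Cdh1 was detected on 3, 2 and 1 arrays, Cdx1 on 1, 2 and 0 and Cdx2 on 1, 0 and 1. Most of this list therefore gives the colon epithelial label little support here. Summed levels of a marker list cover only its tested genes, with 1 intensity unit added for each other gene of the list. Tested were 3 epithelial, 3 fibroblast, 1 immune and 3 endothelial markers. The epithelial sums were 7.001 to 7.15 log2 units on CEACAM1-L, 6.64 to 6.96 on CEACAM1-S and 7.03 to 7.30 on control arrays. Of 6 fibroblast markers, 1 (Pdgfra) was detected on all arrays and 2 on none. The fibroblast sums were 8.95 to 9.16 on CEACAM1-L, 8.48 to 8.86 on CEACAM1-S and 8.06 to 8.44 on control arrays, with no overlap between groups. Of the 6 immune markers that have a probe, 5 were detected on none, and Csf1r was the 1 tested. The immune sums, which rest on Csf1r and the added units, were 4.95 to 5.21 on CEACAM1-L, 5.01 to 5.35 on CEACAM1-S and 5.15 to 5.30 on control arrays. Of the 5 endothelial markers, 2 were detected on none. The endothelial sums were 6.21 to 6.49 on CEACAM1-L, 6.25 to 6.57 on CEACAM1-S and 6.50 to 6.89 on control arrays. What part these shifts have in the carrier results was not tested.

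Of the 139 carrier genes, 92 were detected on all 12 arrays, 20 on 8 to 11, 18 on 5 to 7 and 9 on 4. Among carrier probes just inside the rule, the 12 detected on 4 arrays had mean levels of 4.62 to 4.80 log2 units, and just outside it the 9 detected on 3 arrays had 4.56 to 4.76. A set of 13 members was detected on no array of at least 1 group, and such a member could pass only through the groups in which it is brighter. The median SD within groups was 0.21 log2 units for the 92 members detected on every array, 0.28 for the other 47 and 0.19 for all tested genes detected on every array.

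Promoter sequence was available in RefSeq (GRCm38.p6) for 110 of the 139 members. No window is printed for Slc12a2, which had the largest fall from control in both lines, or for Slc48a1, which had the largest rise in CEACAM1-L cells. The windows of 4 other members with large fitted rises or falls are printed, a choice made after their values were seen. Each is the 250 bases before the start that the promoter table gives, which for Slc25a45 lies inside the gene span given further on, 5′ to 3′ on the plus strand, with capitals on any GC box (GGGCGG) or CCAAT box, on either strand.
Slc4a8 (chr15:100761497-100761746): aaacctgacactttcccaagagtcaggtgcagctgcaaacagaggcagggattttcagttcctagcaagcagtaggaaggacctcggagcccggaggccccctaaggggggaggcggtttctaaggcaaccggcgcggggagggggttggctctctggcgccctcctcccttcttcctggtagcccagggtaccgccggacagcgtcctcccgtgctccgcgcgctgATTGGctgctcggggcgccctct
Slc25a45 (chr19:5877572-5877821): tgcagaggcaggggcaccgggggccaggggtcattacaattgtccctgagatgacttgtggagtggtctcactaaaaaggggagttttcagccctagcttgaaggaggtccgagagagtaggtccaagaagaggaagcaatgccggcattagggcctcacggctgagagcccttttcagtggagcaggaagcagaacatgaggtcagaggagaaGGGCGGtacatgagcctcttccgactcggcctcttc
Slc25a20 (chr9:108661886-108662135): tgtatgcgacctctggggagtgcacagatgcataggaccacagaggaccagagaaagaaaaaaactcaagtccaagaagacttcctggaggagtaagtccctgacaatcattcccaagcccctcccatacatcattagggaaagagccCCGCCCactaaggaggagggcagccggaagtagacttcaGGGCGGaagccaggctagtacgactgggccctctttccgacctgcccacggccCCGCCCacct
Slc19a2 (chr1:164248796-164249045): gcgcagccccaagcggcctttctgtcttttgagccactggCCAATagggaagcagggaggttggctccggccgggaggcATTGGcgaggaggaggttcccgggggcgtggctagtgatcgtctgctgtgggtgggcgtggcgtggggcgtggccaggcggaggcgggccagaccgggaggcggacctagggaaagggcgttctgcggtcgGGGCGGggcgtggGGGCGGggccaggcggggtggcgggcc
Among 152 windows of members, 59.9% held a GC box against 32.7% of all 32851 windows of the same length, and 32.2% held a CCAAT box against 33.8%. An E-box CACGTG was found in 13.8% of the members' windows and 6.02% of all windows, an AP-1 site TGACTCA in 1.32% and 4.46%, and TATAAA in 5.92% and 12.4%, each searched on both strands. The members are detected genes and the full set is not, so these shares describe sequence content and were not tested. GC content was 64.8% for Slc4a8, 56.4% for Slc25a45, 56.8% for Slc25a20 and 73.2% for Slc19a2, against a median of 52.4% over all windows.

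The first comparison asked which carriers differ in cells with the long isoform. CEACAM1-L cells had more transcript of the heme transporter gene Slc48a1 (2.69-fold), the mitochondrial calcium exchanger gene Slc8b1 (1.97-fold), the fatty acid transport gene Slc27a1 (1.98-fold) and the creatine transporter gene Slc6a8 (1.84-fold). They had less of the chloride-loading cotransporter gene Slc12a2 (2.50-fold lower), the mitochondrial carrier gene Slc25a45 (2.07-fold lower) and the neutral amino acid exchanger gene Slc1a4 (1.91-fold lower). In CEACAM1-L cells 44 of the 139 genes differed from control, 20 higher and 24 lower. That is 31.7% of the members, and the same call was made for 36.2% of all tested genes (18.2% higher and 18% lower). Among members detected on all 12 arrays the share was 40.2%, against 41% of all such genes. The median log2 difference was −0.05 over the members and −0.01 over all tested genes. By the fitted values at least a 2-fold difference was reached by 7 members (5.04%), against 4.96% of all tested genes. One of the 7, Slc45a3, was detected on 0 control arrays and has a lower bound of only 1.43-fold. In 41 members (29.5%) the CEACAM1-L and control arrays did not overlap, against 32.6% of all tested genes. Solute carrier genes differed in CEACAM1-L cells about as often as all tested genes. In such bulk samples, fewer cells of a kind and less RNA per cell cannot be told apart.

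In cells with the short isoform, the largest rises were those of the carnitine-acylcarnitine carrier gene Slc25a20 (1.79-fold) and of Slc8b1 (1.79-fold). The largest falls were those of Slc12a2 (1.87-fold lower) and the thiamine transporter gene Slc19a2 (1.86-fold lower). In CEACAM1-S cells 31 members differed from control, 10 higher and 21 lower. This was 22.3% of the members, against 23.6% of all tested genes, and 30.4% against 26.7% among genes detected on all 12 arrays. Higher calls took 7.19% of members and 12.2% of all tested genes, and lower calls 15.1% of members and 11.4% of all tested genes. The median log2 difference was −0.000778 over the members and −0.01 over all tested genes. Every member's log2 difference lay between −0.90 (Slc12a2) and 0.84 (Slc25a20), so 0 members reached 2-fold at any p, against 2.66% of all tested genes past both limits. The CEACAM1-S and control arrays did not overlap for 33 members (23.7%), against 23.5% of all tested genes. Both isoform lines were set against the same 4 control arrays, so their differences from control are not independent of each other.

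Set directly against each other, CEACAM1-L cells exceeded CEACAM1-S cells in the creatine transporter gene Slc6a8 (2.27-fold), the arginine transporter gene Slc7a1 (2.13-fold) and the bicarbonate exchanger gene Slc4a8 (at least 2.02-fold), and Slc25a45 was 2.83-fold lower in CEACAM1-L cells. Between these lines 43 members differed, 24 higher and 19 lower in CEACAM1-L than CEACAM1-S cells. The share was 30.9%, against 26.2% of all tested genes (13.2% higher and 12.9% lower), and 39.1% against 29.7% among genes detected on all 12 arrays. The median was −0.01 for the members and −0.02 for all tested genes. By the fitted values at least a 2-fold difference was reached by 6 members (4.32%), against 2.82% of all tested genes, and 38 members (27.3%) did not overlap, against 25.8%. Over the 3 comparisons, 73 members were called in none, 20 in 1, 40 in 2 and 6 in all 3.

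These counts depend on the normalization. When each array was instead scaled to its median, limma called 12 members in CEACAM1-L against control, 0 in CEACAM1-S against control and 7 in CEACAM1-L against CEACAM1-S, with 33, 18 and 22 members at an unadjusted p under 0.05 in limma. In CEACAM1-L against control the members that passed with it were Slc48a1, Slc4a8, Slc17a5, Slc45a3, Slc2a8, Slc22a23, Slc38a4, Slc12a2, Slc25a45, Slc10a3, Slc1a4 and Slc29a2, and in CEACAM1-L against CEACAM1-S they were Slc4a8, Slc7a1, Slc2a8, Slc45a3, Slc25a45, Slc5a5 and Slc16a6. That scaling moved the median of all tested genes to −0.11 in CEACAM1-L against control and to −0.11 in CEACAM1-L against CEACAM1-S. It kept the direction of every named result. Within sets A and B taken separately, all 44, 31 and 43 called members kept their direction. The calls came from these same arrays, so such agreement is largely built in and is no independent support. Each set holds 2 arrays of each group. In set A alone the counts were 51 in CEACAM1-L and 23 in CEACAM1-S against control, and 50 in CEACAM1-L against CEACAM1-S, and in set B alone they were 19, 15 and 7. Of the 118 calls of a member in a comparison, 84 passed in every fit that left out 1 array, and 34 were lost in at least 1 of these fits (10 in CEACAM1-L against control, 11 in CEACAM1-S against control and 13 in CEACAM1-L against CEACAM1-S).

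**Figure D1:**
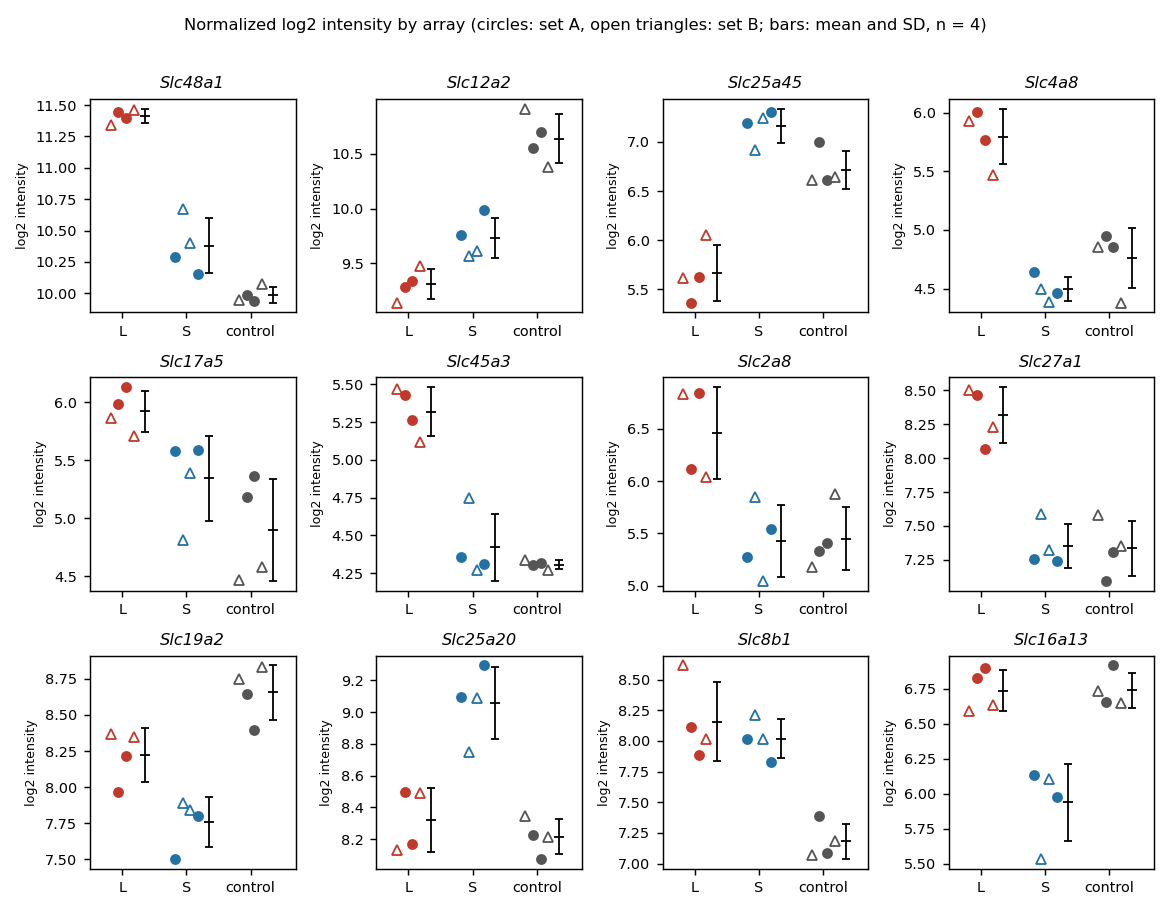
Normalized log2 intensity (vertical axis) on each of the 12 arrays for 12 solute carrier genes, with CEACAM1-L, CEACAM1-S and control arrays from left to right, circles for set A, open triangles for set B and bars for the mean and SD of 4 arrays. Slc48a1 lies at 11.34 to 11.46 on CEACAM1-L arrays, above every other array, and Slc12a2 lies at 9.14 to 9.48 there, below every other array.

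Among the 11 vitamin, lipid, choline and heme carriers, 3 rose and 3 fell in CEACAM1-L cells, 2 rose and 2 fell in CEACAM1-S cells, and 3 were higher in CEACAM1-L than CEACAM1-S cells. Over all tested genes 36.2%, 23.6% and 26.2% were called in either direction in the 3 comparisons. Slc48a1, which encodes a transporter that carries heme out of endosomes and lysosomes, showed the largest rise of all members in CEACAM1-L cells. The gene lies at chr15:97784365-97792692 (GRCm38.p6). Slc48a1 read 11.34, 11.45, 11.40 and 11.46 on CEACAM1-L arrays, 10.29, 10.67, 10.40 and 10.15 on CEACAM1-S arrays, and 9.95, 9.99, 9.94 and 10.07 on control arrays. The 3 groups did not overlap, with CEACAM1-L highest and control lowest. Slc48a1 rose by 1.43 ± 0.10 in CEACAM1-L cells (2.69-fold up, adjusted p = 4.29e-11) and, for CEACAM1-S, by 0.39 ± 0.10 (adjusted p = 0.00438), and the isoform lines differed by 1.04 ± 0.10 (adjusted p = 3.43e-08).

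Slc27a1, a fatty acid transport protein, read 8.50, 8.47, 8.07 and 8.23 on CEACAM1-L arrays, 7.26, 7.59, 7.32 and 7.24 on CEACAM1-S arrays, and 7.58, 7.09, 7.30 and 7.35 on control arrays. Every CEACAM1-L array lay above all the others, while CEACAM1-S and control overlapped. Its log2 difference was 0.98 ± 0.14 in CEACAM1-L (adjusted p = 6.65e-06) and, for CEACAM1-S, 0.02 ± 0.14 (adjusted p = 0.948), and the lines differed by 0.96 ± 0.14 (adjusted p = 1.76e-05). Slc19a2, a thiamine transporter, read 8.37, 7.96, 8.22 and 8.35 on CEACAM1-L arrays, 7.50, 7.89, 7.84 and 7.80 on CEACAM1-S arrays, and 8.75, 8.64, 8.40 and 8.83 on control arrays. All 3 groups were apart, with CEACAM1-S lowest. Slc19a2 had log2 differences of −0.43 ± 0.13 in CEACAM1-L (adjusted p = 0.0119) and, for CEACAM1-S, −0.90 ± 0.13 (adjusted p = 1.48e-05), and was higher in CEACAM1-L than CEACAM1-S cells by 0.46 ± 0.13 (adjusted p = 0.0105). The first of these calls was lost without CEACAM1-L 2 (adjusted p = 0.0596) and the last without CEACAM1-S 1 (adjusted p = 0.0538). Slc19a1, the reduced folate carrier, fell in both lines, with differences of −0.58 ± 0.10 in CEACAM1-L (adjusted p = 9.85e-05) and, for CEACAM1-S, −0.35 ± 0.10 (adjusted p = 0.0149, and 0.051 without CEACAM1-S 2). Slc44a2, a choline transporter-like protein, rose by 0.43 ± 0.12 in CEACAM1-L (adjusted p = 0.0065) and, for CEACAM1-S, by 0.41 ± 0.12 (adjusted p = 0.0157). With the mean of its 3 probes neither call passed (adjusted p = 0.0596 in CEACAM1-L and 0.389 in CEACAM1-S). In CEACAM1-S cells another probe read −0.09 ± 0.23, and the call was lost without CEACAM1-S 1 or without control 4 (largest adjusted p = 0.0781).

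Of the 16 ion and pH carriers, 3 rose and 1 fell in CEACAM1-L cells and 2 rose and 2 fell in CEACAM1-S cells. By the same call 18.2% of all tested genes rose and 18% fell in CEACAM1-L cells. In CEACAM1-S cells 12.2% of all tested genes rose and 11.4% fell. Slc12a2, the sodium-potassium-chloride cotransporter NKCC1 that loads chloride into epithelial cells, showed the largest fall of all members in both lines. Slc12a2 read 9.14, 9.28, 9.34 and 9.48 on CEACAM1-L arrays, 9.76, 9.57, 9.62 and 9.98 on CEACAM1-S arrays, and 10.91, 10.55, 10.70 and 10.38 on control arrays. The groups did not overlap, in the order CEACAM1-L, CEACAM1-S, control from low to high. Its log2 differences were −1.32 ± 0.12 in CEACAM1-L (2.50-fold lower, adjusted p = 2.52e-09) and, for CEACAM1-S, −0.90 ± 0.12 (adjusted p = 2.3e-06), and CEACAM1-L minus CEACAM1-S was −0.42 ± 0.12 (adjusted p = 0.00829). A further probe of Slc12a2 gave −1.42 and −0.97 against control and −0.45 between the lines.

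Slc8b1, which encodes the mitochondrial sodium-calcium exchanger, read 8.62, 8.11, 7.88 and 8.01 on CEACAM1-L arrays, 8.02, 8.21, 8.02 and 7.83 on CEACAM1-S arrays, and 7.07, 7.38, 7.08 and 7.19 on control arrays. Both isoform lines lay above every control array and overlapped each other. Slc8b1 rose by 0.98 ± 0.15 in CEACAM1-L (adjusted p = 1.32e-05) and, for CEACAM1-S, by 0.84 ± 0.15 (adjusted p = 0.000157), and the difference of 0.14 ± 0.15 between the lines did not pass (adjusted p = 0.552). Slc4a8, a sodium-driven chloride-bicarbonate exchanger, was near the detection limit, on 4 CEACAM1-L arrays, 0 CEACAM1-S arrays and 3 control arrays. It read 5.93, 6.01, 5.77 and 5.47 on CEACAM1-L arrays, 4.64, 4.50, 4.39 and 4.46 on CEACAM1-S arrays, and 4.85, 4.95, 4.85 and 4.38 on control arrays. Every CEACAM1-L array lay above the rest. Slc4a8 rose by 1.04 ± 0.18 in CEACAM1-L cells (adjusted p = 4.99e-05) and was at least 2.02-fold higher than in CEACAM1-S cells (adjusted p = 5.24e-06), a bound set by the lowest signal among detected probes. A further Slc4a8 probe gave smaller differences, 0.53 ± 0.21 from control and 0.59 ± 0.21 from CEACAM1-S. Slc12a9, a member of the cation-chloride cotransporter family, rose by 0.60 ± 0.15 in CEACAM1-L (adjusted p = 0.00289) and, for CEACAM1-S, by 0.46 ± 0.15 (adjusted p = 0.0291). The CEACAM1-S call did not pass with the mean of its probes (adjusted p = 0.125) or without CEACAM1-S 2, CEACAM1-S 3, control 3 or control 4 (largest adjusted p = 0.0967).

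Of 4 genes that are named after a carrier but encode none themselves (Slc4a1ap, Slc7a6os, Slc9a3r1 and Slc9a3r2), 2 rose in CEACAM1-L cells and 1 in CEACAM1-S cells. Over all tested genes 18.2% and 12.2% rose in these lines. Slc4a1ap rose by 0.75 ± 0.13 in CEACAM1-L (adjusted p = 6.95e-05) and, for CEACAM1-S, by 0.52 ± 0.13 (adjusted p = 0.00469). Slc9a3r2, a scaffold that holds sodium-proton exchangers at the membrane, rose by 0.51 ± 0.13 in CEACAM1-L cells (adjusted p = 0.00251) and exceeded its CEACAM1-S level by 0.45 ± 0.13 (adjusted p = 0.00957).

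Of the 25 carriers of amino acids, peptides and osmolytes, 11 were detected on all arrays. In CEACAM1-L cells 2 rose and 3 fell, and in CEACAM1-S cells 4 fell. By the same call 36.2% of all tested genes differed from control in CEACAM1-L cells and 23.6% in CEACAM1-S cells. Slc1a4 and Slc1a5 were among the 3 that fell in CEACAM1-L cells. Slc1a4, which exchanges alanine, serine and cysteine, read 7.84, 7.91, 7.86 and 8.04 on CEACAM1-L arrays, 8.52, 8.28, 8.51 and 8.50 on CEACAM1-S arrays, and 9.20, 8.80, 8.73 and 8.64 on control arrays. The groups did not overlap, with CEACAM1-L lowest and control highest. Slc1a4 had differences of −0.93 ± 0.12 in CEACAM1-L (adjusted p = 2.13e-06), −0.39 ± 0.12 in CEACAM1-S (adjusted p = 0.0254) and −0.54 ± 0.12 between CEACAM1-L and CEACAM1-S cells (adjusted p = 0.00194). The CEACAM1-S call was lost without CEACAM1-S 2 or without control 1 (largest adjusted p = 0.118). Slc1a5, the related glutamine exchanger, read 6.35, 6.37, 6.62 and 5.93 on CEACAM1-L arrays, 7.30, 6.32, 6.76 and 6.86 on CEACAM1-S arrays, and 7.22, 6.89, 7.24 and 7.33 on control arrays. Every CEACAM1-L array lay below every control array, while CEACAM1-S overlapped both. Slc1a5 fell by 0.86 ± 0.19 in CEACAM1-L cells (adjusted p = 0.000883), with its other probes at −0.75 and −1.11, and the CEACAM1-S difference of −0.36 ± 0.19 did not pass (adjusted p = 0.18).

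Slc6a8, the creatine transporter, read 8.78, 8.49, 8.38 and 8.47 on CEACAM1-L arrays, 7.17, 7.75, 7.17 and 7.31 on CEACAM1-S arrays, and 7.57, 7.75, 7.54 and 7.75 on control arrays. All CEACAM1-L arrays lay above the others. Slc6a8 rose by 0.88 ± 0.14 in CEACAM1-L cells (adjusted p = 2.65e-05) and exceeded its CEACAM1-S level by 1.18 ± 0.14 (2.27-fold, adjusted p = 9.6e-07), and the CEACAM1-S difference from control was −0.30 ± 0.14 (adjusted p = 0.13). Slc7a1, which takes up arginine and lysine, read 6.28, 6.47, 6.27 and 5.75 on CEACAM1-L arrays, 5.35, 4.56, 4.99 and 5.50 on CEACAM1-S arrays, and 5.78, 5.58, 5.70 and 5.88 on control arrays. CEACAM1-L overlapped control, and CEACAM1-S lay below both. Slc7a1 was higher in CEACAM1-L than CEACAM1-S cells by 1.09 ± 0.20 (adjusted p = 0.000228) and fell by 0.64 ± 0.20 in CEACAM1-S cells (adjusted p = 0.0224). This fall did not pass without CEACAM1-S 2, CEACAM1-S 3 or control 4 (largest adjusted p = 0.104). Slc15a4, a lysosomal peptide and histidine transporter, rose by 0.59 ± 0.17 in CEACAM1-L cells (adjusted p = 0.00773). Its CEACAM1-L 4 array (7.31) lay below control 4 (7.33), so the groups overlapped. The Slc15a4 difference was 0.97 in set A and 0.21 in set B. The amino acid members that did not pass in any comparison include Slc3a2, the heavy chain of several exchangers, its partner Slc7a6, the taurine transporter Slc6a6 and the glycine transporter Slc6a9. Slc38a2, a glutamine transporter, did not pass either by its brightest probe (−0.11 ± 0.10 in CEACAM1-L against control), but another of its probes, also detected on all 12 arrays, read −0.88 ± 0.19 there and −0.54 ± 0.19 between CEACAM1-L and CEACAM1-S cells.

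**Figure D2:**
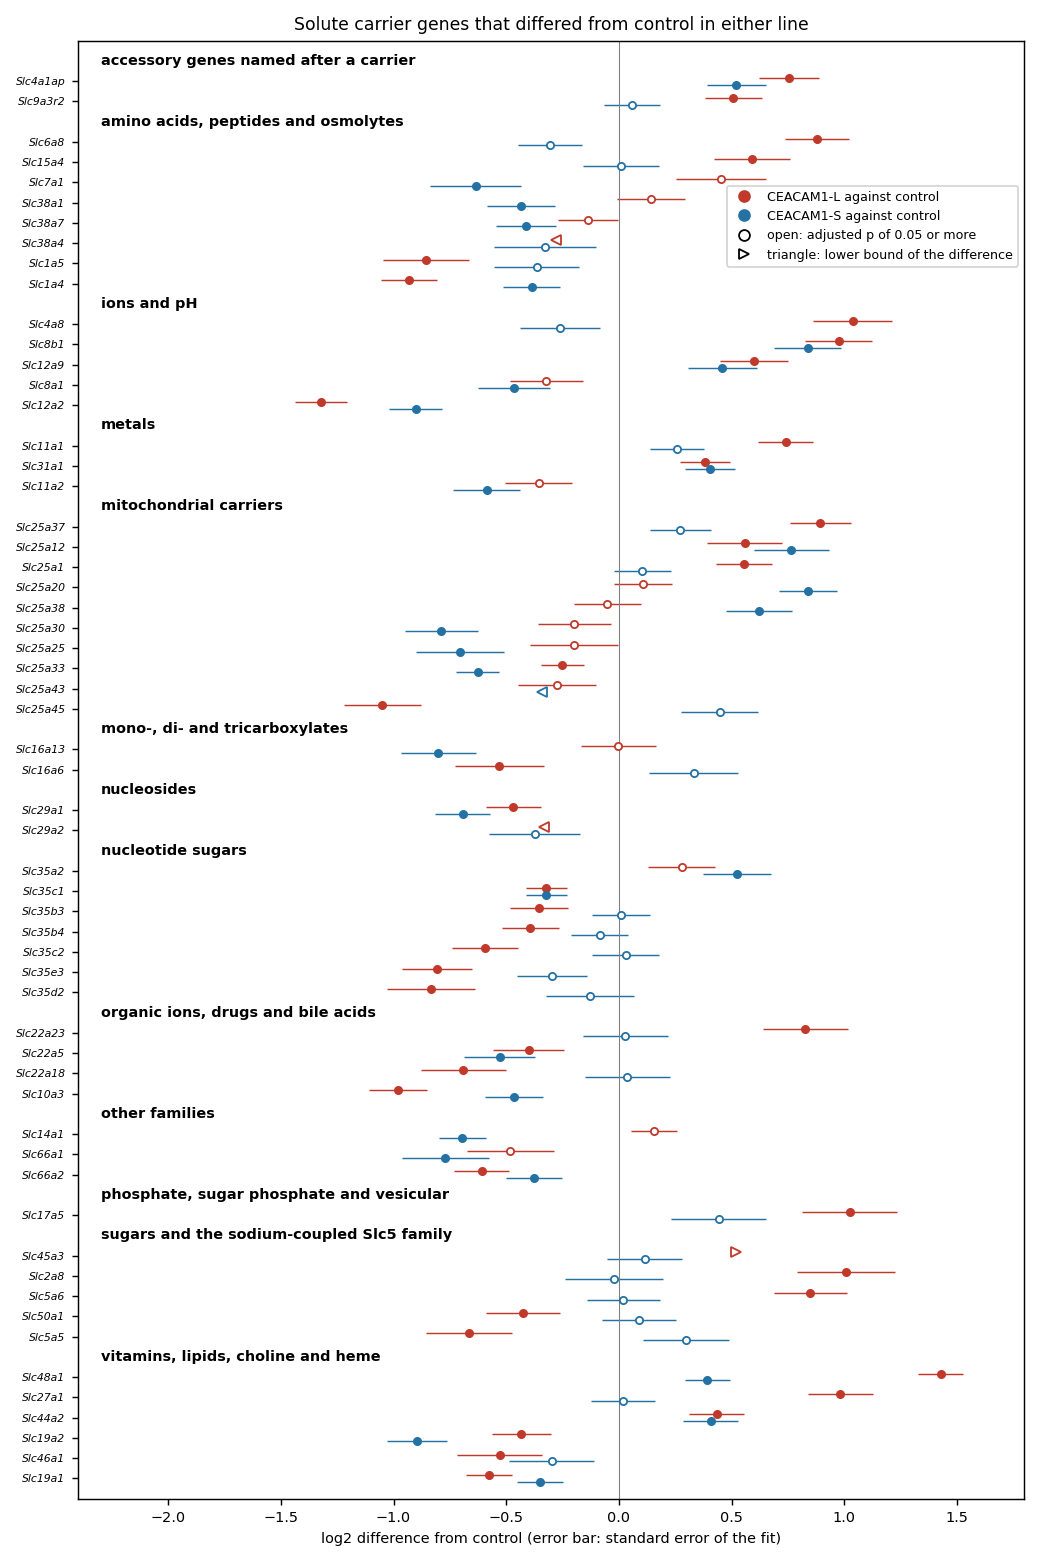
Log2 difference from control (horizontal axis, error bars standard errors of the fit) for each solute carrier gene that passed in CEACAM1-L or CEACAM1-S cells, grouped by role. The points run from −1.32 for Slc12a2 to 1.43 for Slc48a1 in CEACAM1-L cells and from −0.90 to 0.84 in CEACAM1-S cells, and triangles mark the lower bound of a difference for a gene detected on no array of the dimmer group.

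The mitochondrial carrier family Slc25, which moves metabolites, nucleotides and metals across the inner mitochondrial membrane, had 30 members. In CEACAM1-L cells 3 rose and 2 fell, in CEACAM1-S cells 3 rose and 4 fell, and 5 were higher and 3 lower in CEACAM1-L than CEACAM1-S cells. Over all tested genes the shares called in either direction were 36.2%, 23.6% and 26.2% in these comparisons. Slc25a45, one of the less studied family members, lies at chr19:5877801-5885768 (GRCm38.p6). It read 5.61, 5.37, 5.63 and 6.05 on CEACAM1-L arrays, 7.19, 6.91, 7.25 and 7.30 on CEACAM1-S arrays, and 6.61, 6.999, 6.61 and 6.64 on control arrays. CEACAM1-L lay below both other groups, which overlapped through a high control array. Slc25a45 fell by 1.05 ± 0.17 in CEACAM1-L cells (2.07-fold lower, adjusted p = 2.81e-05), and the difference CEACAM1-L minus CEACAM1-S was −1.50 ± 0.17 (2.83-fold lower, adjusted p = 4.7e-07), the largest difference of any member between the lines. The CEACAM1-S difference of 0.45 ± 0.17 from control did not pass (adjusted p = 0.0582).

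Slc25a37, mitoferrin-1, which brings iron into mitochondria, read 9.67, 9.88, 10.33 and 10.06 on CEACAM1-L arrays, 9.48, 9.34, 9.27 and 9.37 on CEACAM1-S arrays, and 8.75, 9.01, 9.45 and 9.17 on control arrays. CEACAM1-L lay above the rest, and CEACAM1-S overlapped control. Slc25a37 rose by 0.89 ± 0.14 in CEACAM1-L cells (adjusted p = 1.16e-05) and exceeded its CEACAM1-S level by 0.62 ± 0.14 (adjusted p = 0.00123). Slc25a38, a glycine carrier used in heme synthesis, read 8.54, 8.91, 9.15 and 9.28 on CEACAM1-L arrays, 9.65, 9.41, 9.70 and 9.82 on CEACAM1-S arrays, and 9.15, 9.25, 9.09 and 8.59 on control arrays. CEACAM1-S was highest and did not overlap either other group. Slc25a38 rose by 0.62 ± 0.15 in CEACAM1-S cells (adjusted p = 0.00275), with −0.05 ± 0.15 in CEACAM1-L cells (adjusted p = 0.831), and CEACAM1-L minus CEACAM1-S was −0.67 ± 0.15 (adjusted p = 0.00129). Its other probes read 0.69 and 0.64 in CEACAM1-S against control and −0.71 and −1.15 between the lines. In CEACAM1-L against control they disagreed, at −0.02 ± 0.16 and −0.51 ± 0.18, the latter detected on 9 arrays.

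Slc25a20, which exchanges carnitine for acylcarnitine so that fatty acids can be oxidised, showed the largest rise of all members in CEACAM1-S cells. Slc25a20 read 8.13, 8.50, 8.17 and 8.49 on CEACAM1-L arrays, 9.10, 8.75, 9.09 and 9.29 on CEACAM1-S arrays, and 8.35, 8.23, 8.07 and 8.22 on control arrays. CEACAM1-S was above both other groups, which overlapped. The differences were 0.11 ± 0.13 in CEACAM1-L (adjusted p = 0.57) and, for CEACAM1-S, 0.84 ± 0.13 (adjusted p = 2.31e-05), and CEACAM1-L minus CEACAM1-S was −0.73 ± 0.13 (adjusted p = 0.000128). A further Slc25a20 probe, detected on 11 arrays, gave a smaller CEACAM1-S difference of 0.45 ± 0.21 from control. It read −0.25 ± 0.21 in CEACAM1-L against control and −0.70 ± 0.21 between the lines. Slc25a12, an aspartate-glutamate carrier, rose in both lines, by 0.56 ± 0.17 in CEACAM1-L (adjusted p = 0.0103) and, for CEACAM1-S, 0.77 ± 0.17 (adjusted p = 0.00126). Slc25a1, the citrate carrier, rose by 0.56 ± 0.13 in CEACAM1-L cells (adjusted p = 0.00111). In CEACAM1-S cells falls passed for Slc25a30 (−0.79 ± 0.16, adjusted p = 0.000729), for the ATP-magnesium and phosphate carrier Slc25a25 (−0.71 ± 0.20, adjusted p = 0.00952) and for the pyrimidine nucleotide carrier Slc25a33 (−0.63 ± 0.09, adjusted p = 1.82e-05). Slc25a33 was higher in CEACAM1-L than CEACAM1-S cells by 0.38 ± 0.09 (adjusted p = 0.00394). Neither Slc25a5, an ADP-ATP carrier, nor Slc25a3, the phosphate carrier, passed in any comparison.

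Among 7 metal carriers, 2 rose in CEACAM1-L cells, and 1 rose and 1 fell in CEACAM1-S cells. By the same call 18.2% of all tested genes rose in CEACAM1-L cells, and 12.2% rose and 11.4% fell in CEACAM1-S cells. Slc11a1, a divalent metal transporter of phagosomes in macrophages, rose by 0.74 ± 0.12 in CEACAM1-L cells (adjusted p = 2.88e-05) and exceeded its CEACAM1-S level by 0.48 ± 0.12 (adjusted p = 0.0039). Slc11a2, the related iron importer, fell by 0.59 ± 0.15 in CEACAM1-S cells (adjusted p = 0.00484), and the mean of its probes did not pass (adjusted p = 0.0941). Slc31a1, the copper importer, rose in both, by 0.38 ± 0.11 in CEACAM1-L (adjusted p = 0.00785) and, for CEACAM1-S, 0.41 ± 0.11 (adjusted p = 0.00824).

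The Slc35 family, whose best known members bring nucleotide sugars into the Golgi apparatus for glycosylation, had 16 members. In CEACAM1-L cells 6 fell, in CEACAM1-S cells 1 rose and 1 fell, and 7 were lower and 1 higher in CEACAM1-L than CEACAM1-S cells. Over all tested genes, 18% were lower in CEACAM1-L than control, 11.4% in CEACAM1-S than control and 12.9% in CEACAM1-L than CEACAM1-S cells. The family's median log2 difference was −0.15 in CEACAM1-L, 0.02 in CEACAM1-S and −0.27 between CEACAM1-L and CEACAM1-S cells, and all tested genes had medians of −0.01, −0.01 and −0.02. Slc35c2, which takes part in the fucosylation of proteins in the Golgi, read 8.05, 7.55, 8.33 and 8.40 on CEACAM1-L arrays, 8.86, 8.80, 8.64 and 8.53 on CEACAM1-S arrays, and 8.50, 8.68, 8.78 and 8.76 on control arrays. CEACAM1-L lay lowest, without overlap. Slc35c2 fell by 0.59 ± 0.15 in CEACAM1-L cells (adjusted p = 0.00252). CEACAM1-L minus CEACAM1-S was −0.62 ± 0.15 (adjusted p = 0.00256), and the mean of its probes did not pass there (adjusted p = 0.0909). Other log2 differences from control in CEACAM1-L cells were −0.83 ± 0.20 for the nucleotide sugar transporter Slc35d2 (adjusted p = 0.00157), −0.81 ± 0.16 for Slc35e3 (adjusted p = 0.000216) and −0.32 ± 0.09 for the GDP-fucose transporter Slc35c1 (adjusted p = 0.00695). Slc35c1 also fell by 0.32 ± 0.09 in CEACAM1-S cells (adjusted p = 0.0111), and the UDP-galactose transporter Slc35a2 rose there by 0.52 ± 0.15 (adjusted p = 0.0118). Of the 6 falls in CEACAM1-L cells, that of Slc35b3 was lost without CEACAM1-L 1, 2 or 3 or control 3 or 4 (largest adjusted p = 0.145), and that of Slc35b4 without CEACAM1-L 3 or control 1 (largest adjusted p = 0.0664). Of the 7 lower calls between the lines, 4 were lost without 1 array. That of Slc35b1 was lost without CEACAM1-L 1, 2 or 3 or CEACAM1-S 2 or 3 (largest adjusted p = 0.121), and that of Slc35b3 without CEACAM1-L 1, 2 or 3 or CEACAM1-S 2, 3 or 4 (0.163). That of Slc35e1 was lost without CEACAM1-L 2, 3 or 4, CEACAM1-S 1, 3 or 4 or control 2 (0.174), and that of Slc35e3 without CEACAM1-S 1 or 4 (0.0677). The 1 higher call, of Slc35e4, was lost without CEACAM1-L 1 (adjusted p = 0.0501).

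Among 9 sugar carriers and Slc5 genes, 3 rose and 2 fell in CEACAM1-L cells, and 3 were higher and 3 lower in CEACAM1-L than CEACAM1-S cells. In CEACAM1-S against control, their log2 differences ranged from −0.02 to 0.41 without passing. Of all tested genes, 36.2% differed from control in CEACAM1-L cells, 23.6% in CEACAM1-S cells, and 26.2% between the lines. Slc2a8, an intracellular glucose transporter, read 6.83, 6.12, 6.85 and 6.04 on CEACAM1-L arrays, 5.27, 5.85, 5.05 and 5.54 on CEACAM1-S arrays, and 5.18, 5.33, 5.41 and 5.88 on control arrays. Every CEACAM1-L array lay above the rest. Slc2a8 rose by 1.01 ± 0.22 in CEACAM1-L cells (adjusted p = 0.000676) and exceeded its CEACAM1-S level by 1.03 ± 0.22 (adjusted p = 0.000896). A further Slc2a8 probe, detected on 8 arrays, gave smaller differences, 0.56 ± 0.18 from control and 0.62 ± 0.18 from CEACAM1-S. Slc45a3, a sugar transporter family member first known from prostate, was detected on 4 CEACAM1-L, 1 CEACAM1-S and 0 control arrays, so it passed the detection rule mainly through CEACAM1-L. It read 5.47, 5.43, 5.26 and 5.12 on CEACAM1-L arrays, 4.36, 4.75, 4.27 and 4.31 on CEACAM1-S arrays, and 4.34, 4.30, 4.32 and 4.27 on control arrays. CEACAM1-L was above all others. Slc45a3 was at least 1.43-fold higher in CEACAM1-L than control cells (adjusted p = 3.12e-05). Slc5a6, which takes up biotin and pantothenate, rose by 0.85 ± 0.16 in CEACAM1-L cells (adjusted p = 0.000182). Slc5a5, the iodide transporter of thyroid, fell by 0.66 ± 0.19 in CEACAM1-L cells (adjusted p = 0.00765), and CEACAM1-L minus CEACAM1-S was −0.96 ± 0.19 (adjusted p = 0.000481).

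Of 4 mono-, di- and tricarboxylate carriers, Slc16a13 read 6.59, 6.82, 6.89 and 6.63 on CEACAM1-L arrays, 6.13, 5.53, 6.11 and 5.98 on CEACAM1-S arrays, and 6.73, 6.65, 6.92 and 6.65 on control arrays. CEACAM1-S lay below both other groups, which overlapped. Slc16a13, a monocarboxylate transporter, fell by 0.80 ± 0.17 in CEACAM1-S cells (adjusted p = 0.00073) and was higher in CEACAM1-L than CEACAM1-S cells by 0.80 ± 0.17 (adjusted p = 0.000742). Slc16a6, of the same family, had a CEACAM1-L minus CEACAM1-S difference of −0.86 ± 0.20 (adjusted p = 0.00191). Its fall from control in CEACAM1-L cells (−0.53 ± 0.20, adjusted p = 0.038) did not pass without CEACAM1-L 1, CEACAM1-L 2, control 1, control 2 or control 3 (largest adjusted p = 0.133). Among 3 nucleoside carriers, Slc29a1, an equilibrative adenosine transporter, fell by 0.47 ± 0.12 in CEACAM1-L (adjusted p = 0.0037) and, for CEACAM1-S, fell by 0.69 ± 0.12 (adjusted p = 0.000137). Slc29a2, its relative, was detected on 0 CEACAM1-L, 1 CEACAM1-S and 3 control arrays, so it passed the detection rule mainly through control. It was at least 1.26-fold lower in CEACAM1-L than control cells (adjusted p = 0.0121), but without control 2 the adjusted p was 0.0745.

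Of 4 phosphate, sugar phosphate and vesicular carriers, Slc17a5, which exports sialic acid from lysosomes, read 5.87, 5.98, 6.13 and 5.71 on CEACAM1-L arrays, 5.58, 4.81, 5.39 and 5.59 on CEACAM1-S arrays, and 4.47, 5.18, 5.36 and 4.58 on control arrays. CEACAM1-L lay highest, and CEACAM1-S and control overlapped. Slc17a5 was detected on 4 CEACAM1-L, 4 CEACAM1-S and 2 control arrays, so its control level was near the detection limit. Slc17a5 rose by 1.02 ± 0.21 in CEACAM1-L cells (adjusted p = 0.000444). Its difference of 0.58 ± 0.21 from CEACAM1-S (adjusted p = 0.0446) did not pass without CEACAM1-L 1, CEACAM1-L 2, CEACAM1-L 3, CEACAM1-S 2 or CEACAM1-S 3 (largest adjusted p = 0.173). Slc14a1, a urea transporter, read 10.13, 10.02, 10.07 and 9.78 on CEACAM1-L arrays, 9.02, 9.24, 9.16 and 9.18 on CEACAM1-S arrays, and 9.65, 9.88, 10.00 and 9.86 on control arrays. CEACAM1-S lay below both other groups, which overlapped. Slc14a1 fell by 0.69 ± 0.10 in CEACAM1-S cells (adjusted p = 1.7e-05) and was higher in CEACAM1-L than CEACAM1-S cells by 0.85 ± 0.10 (adjusted p = 1.2e-06). The lysosomal cationic amino acid exporter Slc66a1 fell by 0.77 ± 0.19 in CEACAM1-S cells (adjusted p = 0.00435). Its CEACAM1-L difference of −0.48 ± 0.19 did not pass (adjusted p = 0.0536). Slc66a2 fell in both lines, by 0.61 ± 0.12 in CEACAM1-L (adjusted p = 0.000344) and, for CEACAM1-S, by 0.38 ± 0.12 (adjusted p = 0.0268). The CEACAM1-S call of Slc66a2 was lost without CEACAM1-S 1, CEACAM1-S 3, control 1 or control 2 (largest adjusted p = 0.106).

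Of 7 organic ion, drug and bile acid carriers, 1 rose and 3 fell in CEACAM1-L cells and 2 fell in CEACAM1-S cells. By the same call 18.2% of all tested genes rose and 18% fell in CEACAM1-L cells, and 11.4% fell in CEACAM1-S cells. Slc10a3, an orphan member of the bile acid carrier family, read 7.27, 7.15, 7.30 and 7.21 on CEACAM1-L arrays, 7.84, 7.61, 7.63 and 7.92 on CEACAM1-S arrays, and 8.02, 8.38, 8.25 and 8.21 on control arrays. The groups were apart, with CEACAM1-L lowest. Slc10a3 fell by 0.98 ± 0.13 in CEACAM1-L (adjusted p = 1.59e-06) and, for CEACAM1-S, fell by 0.46 ± 0.13 (adjusted p = 0.00974), and the lines differed by −0.52 ± 0.13 (adjusted p = 0.00381). Slc22a23 rose by 0.83 ± 0.19 (adjusted p = 0.0011) and Slc22a18, an imprinted family member, fell by 0.69 ± 0.19 (adjusted p = 0.0056) in CEACAM1-L cells, and both also differed between the isoform lines, by 0.80 ± 0.19 and −0.73 ± 0.19 (adjusted p = 0.00241 and 0.00557). Slc22a5, the carnitine importer, fell by 0.53 ± 0.16 in CEACAM1-S cells (adjusted p = 0.0155), with its other probes at −0.11 and −0.37, and without control 1 the adjusted p was 0.0649. In CEACAM1-L cells its probes read 0.09, −0.40 and −0.52 and its call (adjusted p = 0.0498) was lost without CEACAM1-L 1, 2 or 3, without CEACAM1-S 1, 3 or 4, and without control 1, 2 or 4 (largest adjusted p = 0.171).

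**Figure D3:**
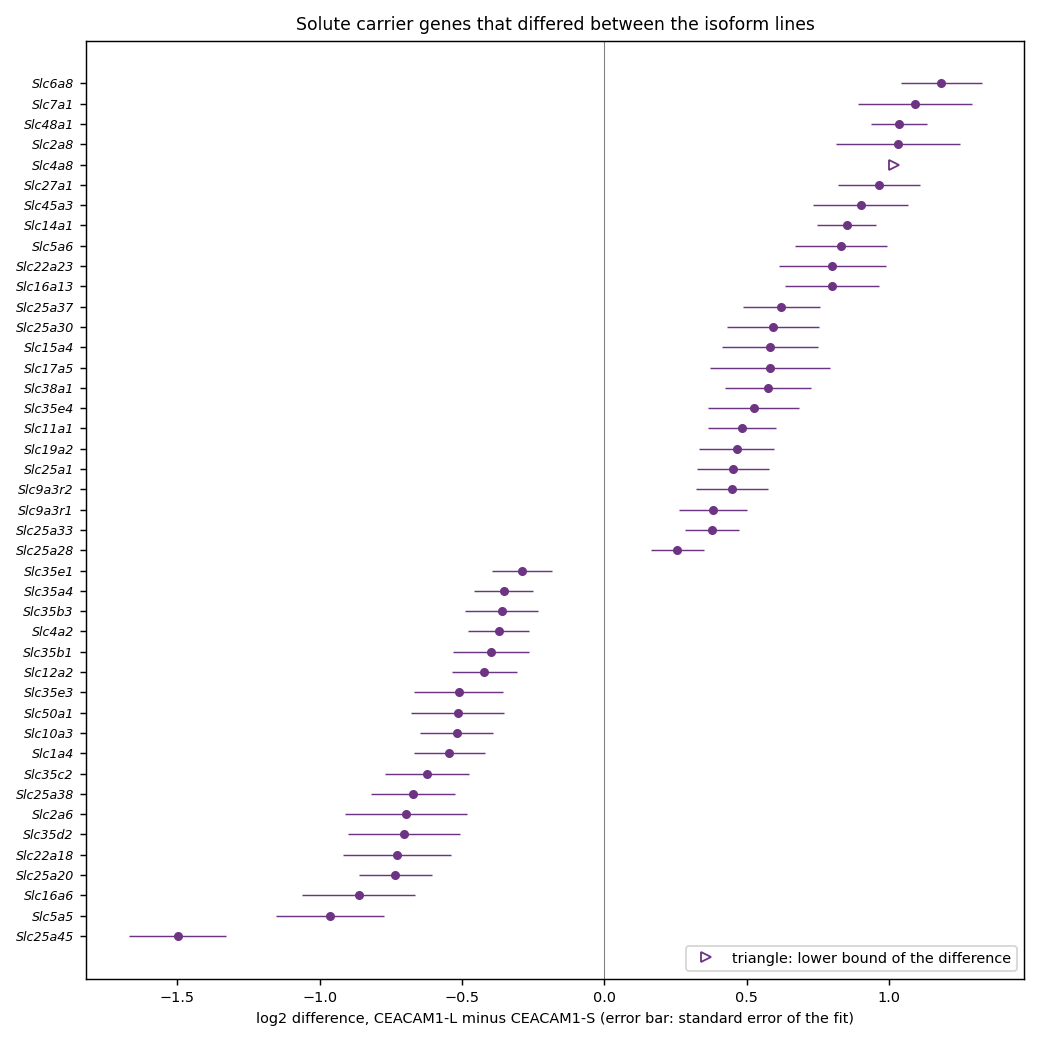
Log2 difference of CEACAM1-L minus CEACAM1-S (horizontal axis, error bars standard errors of the fit) for the 43 solute carrier genes that passed between the lines. The points run from −1.50 for Slc25a45 to 1.18 for Slc6a8, and an open triangle marks Slc4a8 at its lower bound of 2.02-fold, with 24 genes to the right of 0 and 19 to the left.

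Of the 38 members with more than 1 kept probe, all probes had the same sign for 23 in CEACAM1-L against control, 24 in CEACAM1-S against control and 28 in CEACAM1-L against CEACAM1-S. Of the called members with more than 1 kept probe, all probes had the same sign for 12 of 13 in CEACAM1-L, 12 of 13 in CEACAM1-S and 12 of 12 in CEACAM1-L against CEACAM1-S cells, with Slc22a5 and Slc44a2 the exceptions against control.

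Members that rose lay in part on chromosomes where many genes rose, a pattern known from earlier results of these data. In CEACAM1-L cells 5 of the 9 members on chromosome 5 rose, namely Slc8b1, Slc5a6, Slc4a1ap, Slc12a9 and Slc15a4. Of all 625 tested genes on chromosome 5, 42.2% rose and 8% fell in CEACAM1-L cells, with a median log2 difference of 0.26. Slc7a1 and Slc4a2, also on chromosome 5, did not pass in CEACAM1-L cells. In CEACAM1-S cells 3 of the 6 members on chromosome 9 rose, namely Slc25a20, Slc25a38 and Slc44a2. Of 508 tested genes on chromosome 9, 47.2% rose and 2.36% fell in CEACAM1-S cells, with a median of 0.37. The part of the chromosome in these members' results was not tested. Of the genes that lead the comparisons above, Slc25a20 lies on chromosome 9, Slc8b1 on chromosome 5, Slc48a1 on chromosome 15 and Slc25a45 on chromosome 19.

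**Figure D4:**
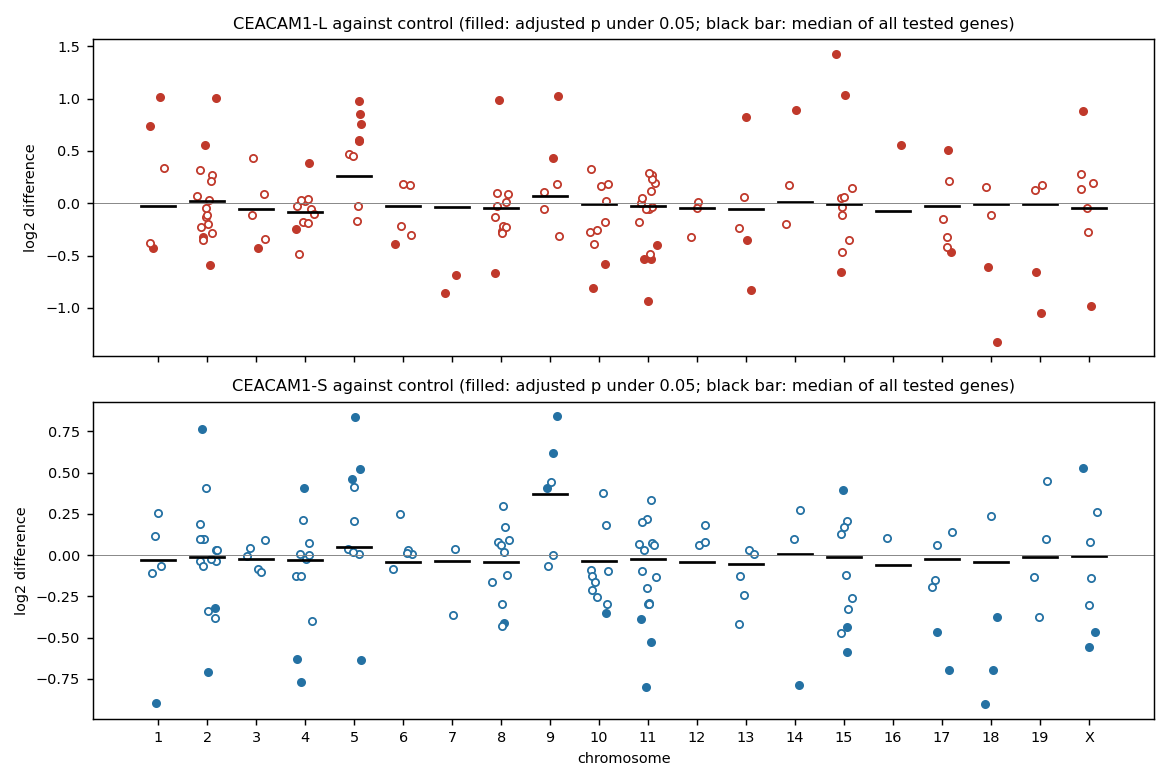
Log2 difference from control (vertical axis) of each solute carrier gene by chromosome (horizontal axis), CEACAM1-L above and CEACAM1-S below, filled where the gene passed, with a black bar at the median of all tested genes of that chromosome. The bar stands at 0.26 for chromosome 5 in CEACAM1-L cells and at 0.37 for chromosome 9 in CEACAM1-S cells.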

How the data were processed

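RNA from 12 samples of MC38 cells was hybridised to Illumina mouse bead arrays, 1 array each, and the sample titles gave groups and replicate numbers. The deposited non-normalized table holds, per the file headers, an intensity and a detection p-value for every probe on every array. The authors' processed values, on a log2 scale and made by a method that the sources used here do not give, served as an alternative. Without saying what it did, the submitters' processing notes list lumi 2.6.0. With limma 3.58.1 (R 4.3.3), neqc corrected the background by normexp, using the detection p-values and adding 16 units, then applied quantile normalization and log2. The platform annotation gave 34885 of 45281 probes 1 symbol, and positions are those of assembly GRCm38.p6. A probe was kept if detected (p under 0.05) on 4 or more of 12 arrays, and the brightest kept probe stood for its gene.

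All 12 arrays entered 1 linear model with a mean for each group (lmFit and eBayes, with trend; 9 residual degrees of freedom and 15.5 prior ones), tested two-sided with Benjamini-Hochberg adjustment over 9100 genes and a threshold of 0.05. A fold given as "at least" applies where a group's arrays did not detect the probe. It sets the brighter group's mean against a floor for the dimmer one: on each array, the probe's own signal or that of the dimmest detected probe, whichever was higher. The fit was tested on simulated data. The members and all lists were chosen with earlier results of these data known. Named members were the 10 largest non-overlapping differences each way per comparison and the leading member of each role group. Other members and the promoters were chosen after their values were seen, and not every member selected is described. Replicate numbers do not pair the samples: deviations of same-numbered arrays from their group means correlated at r between −0.198 and 0.187. The number of arrays limits the precision.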

Additional observations from a re-analysis of the deposited data

Results flagged for a closer look

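Among 67 solute carrier genes and 201 groups of 4 arrays checked, 3 values stood far from the other 3 arrays of their group by Dixon's criterion, which chance alone would meet in about 1 in 20 groups. Slc25a45 read 6.999 on the control 2 array, against 6.61 to 6.64 on the other control arrays, and it is through this array that control overlaps CEACAM1-S. Slc1a4 read 8.28 on the CEACAM1-S 2 array, against 8.50 to 8.52 on the other CEACAM1-S arrays. Slc35e1, an orphan Slc35 member, read 9.14 on the control 2 array, against 9.11 on the other control arrays, a gap of small size.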

How the results depend on the processing

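The counts of solute carrier genes that differ were 44 for CEACAM1-L against control, 31 for CEACAM1-S against control and 43 for CEACAM1-L against CEACAM1-S. With scaling to the median in place of quantile normalization they were 12, 0 and 7 by limma, with 33, 18 and 22 members at an unadjusted p under 0.05. In set B alone they were 19, 15 and 7. Leaving out 1 array at a time gave 38 to 47, 25 to 32 and 36 to 46. No background correction, the authors' processed values, other detection filters, the mean of a gene's probes, array weights, set A alone and the array set as a block kept each count within 1.5 times. Of 118 called member results, 11 passed under every alternative run and 0 reversed under any. Scaling to the median lost 99, set B alone 77, set A alone 19 and no detection filter 17, while the array set as a block lost 0. The cause of the loss with scaling to the median was not tested.

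With the replicate number as a block the counts were 42, 29 and 42, and 7 calls were lost, among them Slc17a5 in CEACAM1-L against CEACAM1-S (0.58, adjusted p = 0.0521). The numbers are shared by name only, and 0 arrays correlated best with an array of their own number. Signal over background limits the 47 members not detected on all arrays, and differences below the detection floor could not be seen.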

Other observations

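Transport genes outside the solute carrier symbols were counted in the same fit, and those named here were chosen after their values were seen. Of 44 ABC transporters with a probe, 16 were tested, of which 4 rose and 2 fell in CEACAM1-L, 1 rose and 2 fell in CEACAM1-S, and 4 were higher and 1 lower in CEACAM1-L set against CEACAM1-S cells. Over all tested genes 36.2%, 23.6% and 26.2% were called in either direction in these comparisons. Abcb6, a porphyrin transporter, rose by 0.72 ± 0.15 in CEACAM1-L cells (adjusted p = 0.000323), with 0.19 ± 0.15 in CEACAM1-S cells (adjusted p = 0.397). Abcb1b, a multidrug efflux pump, fell by 0.47 ± 0.14 in CEACAM1-L (adjusted p = 0.0113) and, for CEACAM1-S, fell by 0.59 ± 0.14 (adjusted p = 0.0034). Only 2 of 14 organic anion carriers of the Slco family were tested. Slco2a1, the prostaglandin transporter, read −2.42 ± 0.17 in CEACAM1-L (adjusted p = 7.14e-11) and, for CEACAM1-S, −0.81 ± 0.17 (adjusted p = 0.000981), and CEACAM1-L minus CEACAM1-S was −1.61 ± 0.17 (adjusted p = 1.72e-07). Slco1a5 fell by 0.83 ± 0.18 in CEACAM1-S cells (adjusted p = 0.00121), with 0.04 ± 0.18 in CEACAM1-L cells (adjusted p = 0.895). The sodium pump subunit Atp1b3 rose by 0.35 ± 0.11 in CEACAM1-L (adjusted p = 0.0103) and, for CEACAM1-S, by 0.67 ± 0.11 (adjusted p = 3.83e-05).

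Of the 5 carriers set apart by name, 3 were tested. The cystine-glutamate exchanger Slc7a11 fell by 0.47 ± 0.14 in CEACAM1-L cells (adjusted p = 0.00761), and CEACAM1-L minus CEACAM1-S was −0.57 ± 0.14 (adjusted p = 0.00264). The lactate exporter Slc16a3 fell by 0.63 ± 0.18 in CEACAM1-S cells (adjusted p = 0.0138), with −0.46 ± 0.18 in CEACAM1-L cells (adjusted p = 0.0541). The glucose transporter Slc2a1 fell by 0.31 ± 0.11 in CEACAM1-S cells (adjusted p = 0.0364), with −0.17 ± 0.11 in CEACAM1-L cells (adjusted p = 0.231). Embigin (Emb), a partner of monocarboxylate carriers, read −0.20 ± 0.14 in CEACAM1-L against control and −0.10 ± 0.14 in CEACAM1-S against control, without passing (adjusted p = 0.273 and 0.655).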
